A study of Mus musculus with 7 samples.

Results

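Imprinted genes are transcribed mainly from the chromosome inherited from a single parent. The parent of origin is remembered as DNA methylation laid down in the germ line at control regions, which the zinc finger proteins ZFP57 and ZFP445, their partner TRIM28 and the methyltransferase DNMT1 protect through later cell divisions. In the blood system, several of these genes have been linked to the quiescence of hematopoietic stem cells: the H19-Igf2 pair and the receptor gene Igf2r act on insulin-like growth factor signaling, and the noncoding RNAs of the Dlk1-Dio3 domain (Meg3, Rian and Mirg) mark long-term stem cells. The 10 genes H19, Igf2, Meg3, Rian, Mirg, Grb10, Ndn, Peg3, Plagl1 and Igf2r were described here in LSK cells. H19, Meg3, Rian, Mirg, Igf2r and, in most tissues, Grb10 are transcribed from the maternal chromosome, and Igf2, Ndn, Peg3 and Plagl1 from the paternal chromosome. The genes were chosen by name, with earlier results of these data known, and all 10 were found among the 48440 genes of the expression table.

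LSK cells (Lin-Sca1+cKit+) are the bone marrow (BM) fraction that holds hematopoietic stem cells and early multipotent progenitors. They were sorted from lethally irradiated (9.5 Gy) C57BL/6 recipients, 77 days after transplantation of unfractionated BM from wild-type donors (4 libraries) or from donors with a constitutive, endonuclease-mediated knockout of PROSER1 (3 libraries, PROSER1 KO), a protein that binds the DNA-demethylating TET enzymes. Nothing else differed between the groups by their labels. The age and sex of the donors are not given in the sources used here, and no gate separating donor from residual recipient LSK cells is described. PolyA RNA was sequenced to a depth of 33143619 to 45140743 read pairs on genes per library. Values are read pairs per gene divided by a size factor of the library (normalized counts), so that a count of 0 allows up to 3 read pairs, or 2.54 to 3.48 normalized counts. That limit covers counting error only. The values do not separate the parental alleles, and in sorted but bulk RNA fewer cells of a type cannot be told apart from less RNA per cell.

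Proser1 mRNA itself was not lower in the PROSER1 KO libraries (2387 ± 67.5, SD, n = 3, against 2088 ± 55.5, n = 4). All 3 PROSER1 KO values lay above all 4 wild-type values, as held for 5.17% of all genes tested. Directions below therefore rest on the labels of the libraries. The gate markers Kit and Ly6a were abundant in all libraries, at summed levels of 30791 to 36363 in wild-type against 30232 to 33921 in PROSER1 KO. Plasma cell markers were abundant as well, with a summed level of 331918 to 943055 in wild-type against 439345 to 1043570 in PROSER1 KO, and 0 of 7 passed the test between the groups. The sums rest mainly on Igha (log2 fold change 1.10) and Jchain, and 6 of the 7 had a log2 fold change below 0 (median -0.25). Of 9 markers of mature lineages that an LSK gate should lack, 0 were at 0 in all libraries and 0 passed the test. Their summed levels were 1266 to 2031 and 1004 to 1724. Of 9 erythroid markers, 6 were tested and 0 called. Over all genes tested, 0.258% were called.

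Start sites are shown for Meg3, the only tested member whose groups did not overlap, and for Igf2r and Grb10, the most abundant members. CpGs are marked as sites of possible DNA methylation. The windows were placed by start sites, and whether they hold any part of the control regions of imprinting was not examined. The 250 bases before a RefSeq start are given on the strand of the gene (build GRCm38.p6), with each CpG in capitals. Meg3 and Grb10 each have 2 such starts, and the window with more CpGs is printed. They lie at chr12:109540746-109540995 (plus strand, Meg3), chr17:12769707-12769956 (minus strand, Igf2r) and chr11:12037421-12037670 (minus strand, Grb10).
Meg3: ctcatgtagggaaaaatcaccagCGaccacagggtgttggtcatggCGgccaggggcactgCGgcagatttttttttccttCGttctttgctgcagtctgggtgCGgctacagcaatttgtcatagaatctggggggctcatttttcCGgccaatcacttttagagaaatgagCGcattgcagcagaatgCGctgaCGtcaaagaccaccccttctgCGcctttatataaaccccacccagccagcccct
Igf2r: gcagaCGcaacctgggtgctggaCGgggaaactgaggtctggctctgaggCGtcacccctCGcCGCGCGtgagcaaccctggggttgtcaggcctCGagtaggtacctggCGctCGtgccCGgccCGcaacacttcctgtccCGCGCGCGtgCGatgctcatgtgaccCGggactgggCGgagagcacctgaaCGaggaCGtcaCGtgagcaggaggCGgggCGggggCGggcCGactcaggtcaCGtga
Grb10: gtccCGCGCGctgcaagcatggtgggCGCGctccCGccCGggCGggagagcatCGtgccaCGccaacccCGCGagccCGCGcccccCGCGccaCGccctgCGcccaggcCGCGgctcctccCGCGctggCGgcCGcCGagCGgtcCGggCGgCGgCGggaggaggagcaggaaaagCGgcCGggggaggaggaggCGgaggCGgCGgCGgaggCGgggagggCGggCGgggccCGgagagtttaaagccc

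The Meg3 window held 10 CpGs at 52.4% GC, the Igf2r window 27 at 69.2% and the Grb10 window 40 at 81.2%. The windows not printed held 0 CpGs (Meg3) and 8 CpGs at 54.0% GC (Grb10). The median over 32851 windows of the same length was 6 CpGs at 52.4% GC. The letters TGCCGC, the core of the motif bound by ZFP57, were searched on both strands and found in 8.68% of those windows. Of 14 windows before starts of 9 members, 2 held them, that of Meg3 (on the minus strand, from base 61) and that of Plagl1. A match describes letters in a window and is no evidence of binding, and methylation was not measured in these libraries.

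Several members are also hosts of microRNAs, short RNAs that recognize their targets through the seed, bases 2 to 8. RefSeq (GRCm38.p6) places 21 precursors and 39 mature microRNAs within H19, Igf2, Meg3, Rian and Mirg, 14 of the precursors within Mirg. A mature form from each of 4 hosts is shown, followed by the only seed that 2 of the 39 shared. Capitals mark the seed.
mmu-miR-675-5p: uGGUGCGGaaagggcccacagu
mmu-miR-770-3p: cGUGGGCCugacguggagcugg
mmu-miR-370-3p: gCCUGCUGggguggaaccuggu
mmu-miR-410-3p: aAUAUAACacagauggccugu
mmu-miR-453: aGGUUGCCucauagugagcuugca
mmu-miR-496a-5p: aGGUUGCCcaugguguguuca

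These lie at chr7:142577112-142577133 (minus strand, H19), chr12:109563744-109563765 (plus, Meg3), chr12:109618305-109618326 (plus, Rian) and, all plus and within Mirg, at chr12:109743764-109743784, chr12:109735669-109735692 and chr12:109739132-109739152. All 21 precursors were in the expression table, and all were at 0 in every library. Libraries made from polyA RNA with a kit for long RNA do not capture mature microRNAs, so the host RNAs alone were measured.

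The 10 genes fell into an abundant pair and a low remainder. Levels between genes were compared per length, as normalized counts per kb of exon. Igf2r, the scavenging receptor that clears insulin-like growth factor 2, was highest (227 ± 28.4, SD, n = 7), followed by the adaptor gene Grb10, a brake on insulin and growth factor receptors (160 ± 19.4). The lowest library for Igf2r was above the highest for Grb10. Ndn, encoding the growth suppressor necdin, reached 16.998 ± 8.04. H19 (2.96 ± 5.28), Igf2 (2.45 ± 1.53), Meg3 (1.31 ± 0.419), Rian (0.912 ± 0.501) and Plagl1 (0.861 ± 0.581) followed, with overlapping ranges between neighbors in that order. H19 stood above Igf2 in only 1 of 7 libraries, and its place in the order rests on that library. Peg3 (0.148 ± 0.114) and Mirg (0.0450 ± 0.119) were at or near the limit of detection.

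**Figure D1:**
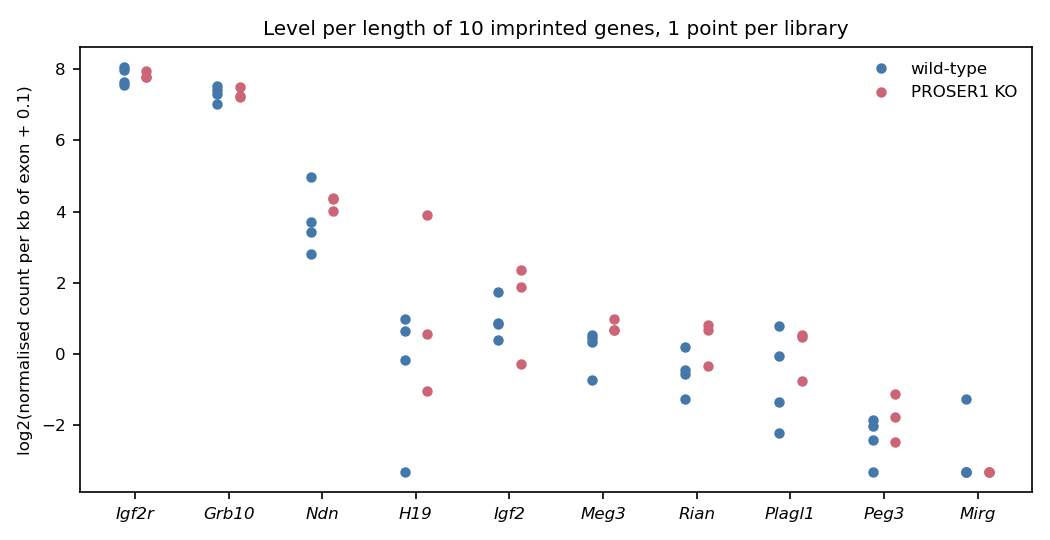
Level of the 10 imprinted genes as log2(normalized count per kb of exon + 0.1), 1 point per library, wild-type in blue and PROSER1 KO in red, ordered by the mean over 7 libraries. Igf2r and Grb10 stand apart from the other 8, and the single high H19 point is a PROSER1 KO library.

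None of the 10 genes was called between PROSER1 KO and wild-type LSK cells. Of the 10, 6 reached the mean of 10 normalized counts needed for testing (Igf2, Meg3, Rian, Grb10, Ndn and Igf2r), and 4 did not (H19, Mirg, Peg3 and Plagl1). With limma, 0 of the 6 were called at an adjusted p under 0.05 and a fold change above 1.5, beside 0.258% of all genes tested (42 of 16251). edgeR also called 0 of the 6, beside 0.246% of all genes, and DESeq2 called 0 of the 8 to which it gave an adjusted p (all but Mirg and Peg3), beside 0.873% of 18903 genes. At an unadjusted p under 0.05, limma found 0 of the 6 (9.73% of all genes tested), edgeR 0 (9.86%) and DESeq2 1 of the 10, H19 (7.03%). The median log2 fold change of the 6 was 0.44, beside 0.00 over all genes tested, and 5 of 6 were above 0, beside 50.6% of all genes tested. In 1 of 6, Meg3, the values of the groups did not overlap, which held for 10% of all genes tested, and for 5.17% with PROSER1 KO higher. The labels call the libraries biological replicates but do not say that they came from separate animals. The p-values therefore measure the spread between these samples only.

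**Figure D2:**
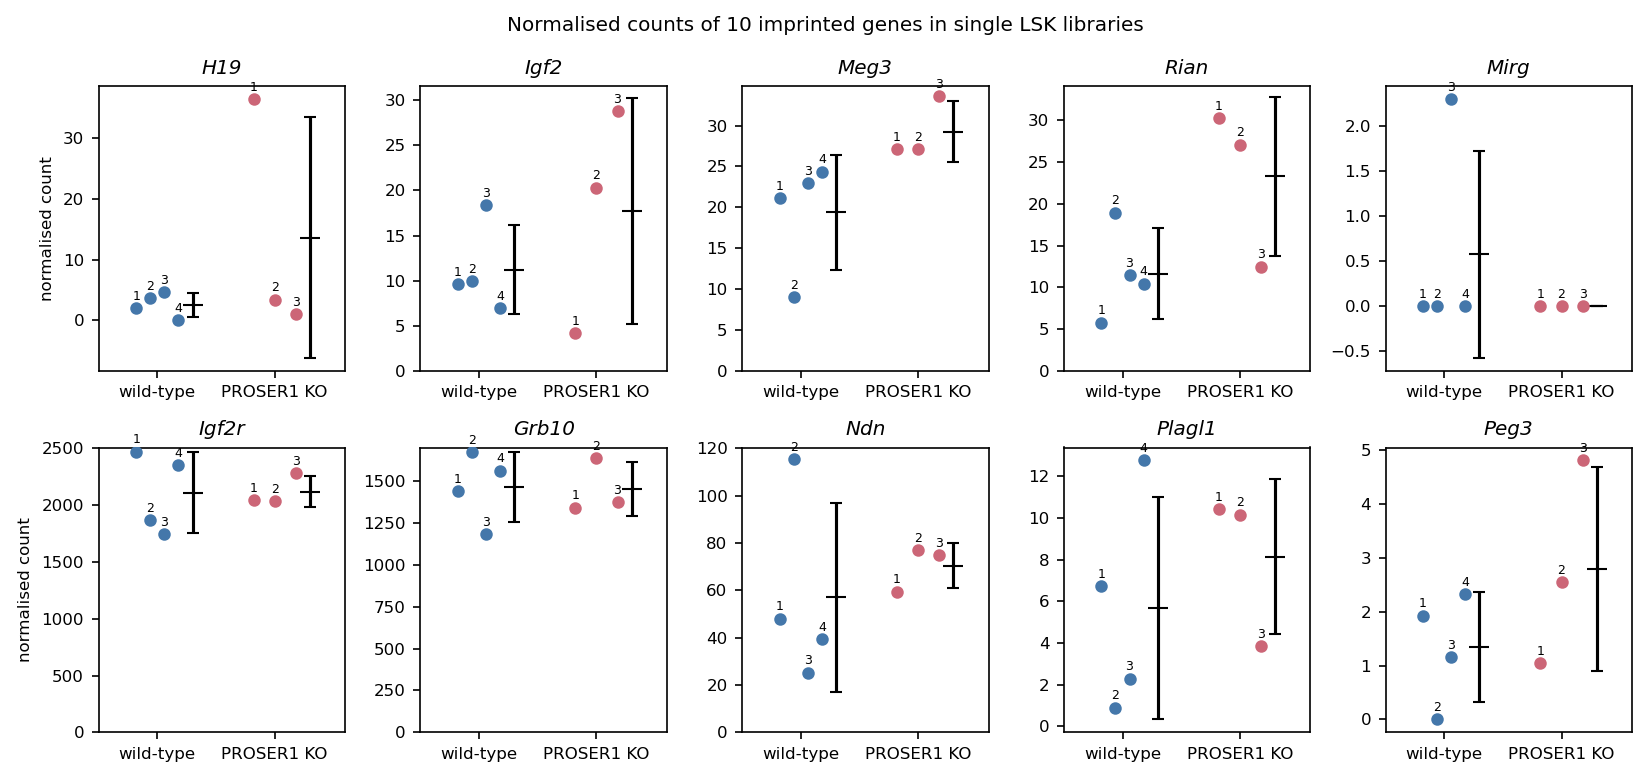
Normalized counts of the 10 genes in each library, wild-type in blue and PROSER1 KO in red, numbered by replicate, with the mean and SD of each group as a bar. Vertical scales differ between genes, and Meg3 is the only gene whose PROSER1 KO values all lie above its wild-type values.

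For the growth factor receptor gene Igf2r no difference between the groups was detectable. On chromosome 17 (12682406 to 12769664, GRCm38), the libraries held normalized counts of 2469, 1870, 1741 and 2349 in wild-type against 2043, 2033 and 2278 in PROSER1 KO. The 3 PROSER1 KO values lay inside the wild-type range. The means were 2107 ± 356 (SD, n = 4) and 2118 ± 139 (n = 3), and the log2 fold change was 0.02 (SE 0.12, limma adjusted p = 0.975). Its 95% interval ran from a fold change of 0.842 to 1.22.

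Grb10 gave the same picture. Its normalized counts (chromosome 11, 11930508 to 12038683) were 1440, 1671, 1180 and 1562 in wild-type against 1340, 1634 and 1373 in PROSER1 KO, and again the PROSER1 KO values lay inside the wild-type range. The means were 1463 ± 211 (SD, n = 4) and 1449 ± 161 (n = 3), with a log2 fold change of -0.01 (SE 0.12, limma adjusted p = 0.990) and an interval from 0.826-fold to 1.20-fold. In both genes the sign of this difference depended on which library was left out. Both varied more between libraries than the median gene of like level. Their residual SDs on the log2 scale were 0.20 (Igf2r) and 0.19 (Grb10), beside a median of 0.09 over 4209 genes with a mean of 1000 to 3000.

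Ndn, on chromosome 7 (62346569 to 62350262), was the most variable of the 6 tested genes among wild-type libraries. The libraries held 48.1, 115, 25.3 and 39.4 normalized counts in wild-type against 59.5, 77.0 and 74.9 in PROSER1 KO. Wild-type replicate 2 was the highest of the 7 and replicate 3 the lowest, whereas the 3 PROSER1 KO libraries lay close together. The coefficient of variation was 70.1% in wild-type and 13.6% in PROSER1 KO, a difference that was not tested. The log2 fold change was 0.52 (SE 0.44, interval -0.48 to 1.51, limma adjusted p = 0.749).

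The 3 tested genes of the Dlk1-Dio3 domain, Meg3, Rian and Dlk1, had log2 fold changes above 0 in PROSER1 KO. Of these 3, 0 were called, where 50.6% of all genes tested were above 0 and 0.258% were called. In this domain of 6 listed genes on chromosome 12 the noncoding RNAs Meg3, Rian and Mirg are transcribed from the maternal chromosome, and Dlk1, encoding a Notch-related membrane protein, from the paternal one. Meg3 normalized counts (109541001 to 109571726) were 21.2, 9.01, 23.0 and 24.3 in wild-type against 27.1, 27.1 and 33.6 in PROSER1 KO. All 3 PROSER1 KO values lay above all 4 wild-type values. The means were 19.4 ± 7.03 (SD, n = 4) and 29.3 ± 3.75 (n = 3). The log2 fold change was 0.65 (SE 0.40, interval -0.24 to 1.55, limma adjusted p = 0.635), or 0.34 without wild-type replicate 2, the lowest library. The exact two-sided permutation test gave p = 0.0857, where 35 splits allow no p below 0.0286. Each value rests on 10 to 35 read pairs.

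Rian (109603940 to 109661716), the neighbor that carries small nucleolar RNAs, had normalized counts of 5.77, 18.9, 11.5 and 10.4 in wild-type against 30.3, 27.1 and 12.5 in PROSER1 KO. PROSER1 KO replicate 3 lay within the wild-type range, and replicates 1 and 2 above it. The log2 fold change was 0.95 (SE 0.49, interval -0.15 to 2.05, limma adjusted p = 0.571). Mirg (109729764 to 109749460) was seen in wild-type replicate 3 alone, with 2 read pairs, so that no difference was detectable at this depth. Dlk1 normalized counts were 29.8, 35.2, 24.1 and 29.0 in wild-type against 49.0, 57.5 and 38.4 in PROSER1 KO. These groups did not overlap, with a log2 fold change of 0.69 (SE 0.27, limma adjusted p = 0.447). Rtl1 and Dio3, the other paternally expressed genes of the domain, were at 0 in every library.

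A common order of libraries was not detectable for Meg3 and Rian. Over 7 libraries, Meg3 and Rian on the log2 scale had a Pearson r of -0.01 (exact permutation p = 0.940) and a Spearman rho of 0.43 (exact p = 0.354). Without wild-type replicate 2 and PROSER1 KO replicate 3, the libraries farthest from the Meg3 median, r was 0.97, so that the value rests on them. Mirg was above 0 in 1 library only, so that no relation with it could be read. In the same family of 7 relations, r was -0.42 for H19 with Igf2 (exact permutation p = 0.365, adjusted p = 0.853). The groups held 4 and 3 libraries, too few for a value within each.

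Markers of stromal and endothelial cells, which can express several imprinted genes, had a higher sum in most PROSER1 KO libraries. Pdgfrb and Emcn were the most abundant of these markers. Of 13, 12 were above 0 in a library, and their summed level was 3267 to 4493 in wild-type against 4472 to 5448 in PROSER1 KO. Without Pdgfrb and Emcn, left out after values had been seen, the sums of the other 11 overlapped (425 to 1143 against 712 to 1585). Both ends of that range were higher in PROSER1 KO. Acta2 was at 0, Lum was at 0 to 2.30 and Col3a1 at 0 to 21.9. Of the 9 tested, 7 had a log2 fold change above 0 and 0 were called, beside 50.6% and 0.258% of all genes tested. The largest were those of Cxcl12 (1.59, SE 1.17, limma adjusted p = 0.701) and Lepr (1.28, SE 0.68, limma adjusted p = 0.581). Cdh5 (0.58), Kdr (0.51) and Plvap (0.32) were above 0 as well, and the groups overlapped in each of these genes. The collagen genes Col1a1 (-0.14) and Col1a2 (-0.10) were below 0. Emcn, also expressed by stem cells, did not overlap between groups (log2 fold change 0.36, limma adjusted p = 0.233), and Pdgfrb had a log2 fold change of 0.37 (limma adjusted p = 0.380). Their part in the Meg3, Rian and Dlk1 values was not tested. Of 15 markers of long-term stem cells, 0 were called and 9 had a log2 fold change above 0, beside 0.258% and 50.6% of all genes tested. Fgd5 (0.22), Hoxb5 (0.33) and Mllt3 (0.15) were higher and Mecom (-0.25) lower without overlap of the groups, and these 4 were 26.7% of the list, beside 10% of all genes tested. Clec1a (0.54) had an unadjusted p of 0.0258. All 5 had a limma adjusted p of 0.282 or more.

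The H19-Igf2 domain of chromosome 7, in which the noncoding RNA H19 and the growth factor gene Igf2 are read from opposite parental chromosomes, was near the limit of detection for H19 and low for Igf2. H19 (142575529 to 142578143) had normalized counts of 1.92, 3.61, 4.60 and 0 in wild-type against 36.5, 3.38 and 0.960 in PROSER1 KO. Apart from PROSER1 KO replicate 1, with 35 read pairs, no library held more than 4. The means were 2.53 ± 2.02 (SD, n = 4) and 13.6 ± 19.9 (n = 3), and the exact two-sided permutation p was 0.457. Without that library the difference of mean log2 values was -0.01. DESeq2 gave an unadjusted p of 0.0437 and an adjusted p of 0.508 for H19, and limma without the filter an adjusted p of 0.809.

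PROSER1 KO replicate 1 also stood apart in some T-lineage genes, which were picked for that. After these values had been seen, genes were listed that had at least 20 normalized counts in a library and, after adding 1, at least 5 times the value of every other library. PROSER1 KO replicate 1 held 11, of which 4 were antigen receptor genes, and the other libraries held 1 to 5, mostly antigen receptor genes. The 7 others of PROSER1 KO replicate 1 included H19, the T cell receptor components Cd3g (697 against at most 52.9 elsewhere) and Cd3e (197 against at most 24.0), and Ptcra, the pre-T cell receptor chain of immature thymocytes (20.9, at 0 in the other 6 libraries). The T-cell markers Cd8a and Cd4 did not stand apart there. Cd8a was at 33.4 in that library and 31.7 in wild-type replicate 1, and Cd4 was at 170, below every wild-type library. The part of T-lineage genes in the H19 value was not tested.

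**Figure D3:**
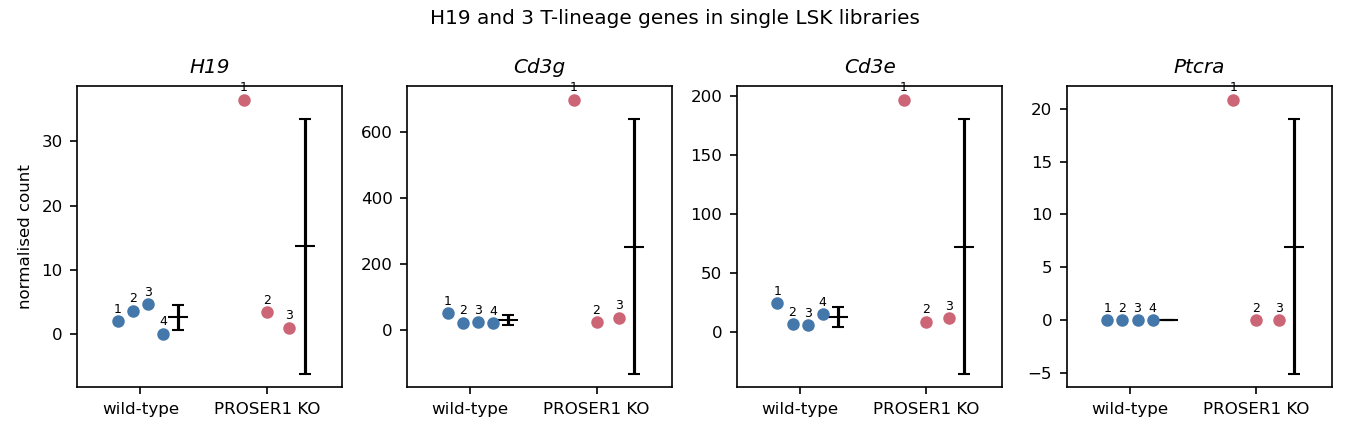
Normalized counts of H19, Cd3g, Cd3e and Ptcra in each library, wild-type in blue and PROSER1 KO in red, numbered by replicate, with the mean and SD of each group as a bar. In all 4 genes PROSER1 KO replicate 1 is far above the other 6 libraries.

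Igf2 (142650766 to 142666816) had normalized counts of 9.62, 9.92, 18.4 and 6.96 in wild-type against 4.17, 20.3 and 28.8 in PROSER1 KO. The PROSER1 KO libraries included both the lowest and the highest value, and the library high in H19 was the lowest in Igf2. The log2 fold change was 0.36 (SE 0.64, interval -1.07 to 1.80, limma adjusted p = 0.905). It was 1.12 without PROSER1 KO replicate 1 and -0.14 without PROSER1 KO replicate 3. Its exons share 98 bases with the antisense gene Igf2os, at 0 to 14.4 normalized counts, and 3596 with Gm49394 on its own strand, which was not used here. The strand setting of the counting is not given in the sources used here.

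The remaining members were rare. Plagl1 (chromosome 10, 13060504 to 13131694), encoding a zinc finger regulator of other imprinted genes, had normalized counts of 6.73, 0.901, 2.30 and 12.8 in wild-type against 10.4, 10.2 and 3.84 in PROSER1 KO. Both groups spread from near the limit upward and overlapped (exact permutation p = 0.400, two-sided). Peg3 (chromosome 7, 6703892 to 6730431), another zinc finger gene and a marker of stem cells in other tissues, had 0 to 2 read pairs in wild-type and 1 to 5 in PROSER1 KO (exact permutation p = 0.343). The other genes of its domain, Zim1 and Usp29, were at 0 in every library.

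Igf2r overlaps the paternally expressed antisense RNA Airn on the other strand, with 0 shared exon bases. Without a stated strand setting, reads from introns of Igf2r that fall on Airn exons cannot be told apart from Airn, and this bears on the values and relations of Airn given here. Airn, whose transcription silences the paternal Igf2r copy in most tissues, was at 63.5, 54.1, 31.0 and 143 normalized counts in wild-type against 45.9, 34.7 and 87.4 in PROSER1 KO. Its spread was wide and the groups overlapped (log2 fold change -0.27, SE 0.49, limma adjusted p = 0.910). Its order of libraries followed that of the plasma cell markers. After values had been seen, the mean log2 level of the 7 plasma cell markers was set against 3 genes. The adjustment over 7 relations does not cover that choice. For Airn, Pearson r was 0.98 (exact permutation p = 0.000794, adjusted p = 0.00556 over 7 relations) and Spearman rho 0.96 (exact p = 0.00278, adjusted p = 0.0194). For Igf2r, r was 0.79 (exact p = 0.0246, adjusted p = 0.0861) and rho 0.86 (exact p = 0.0238, adjusted p = 0.0833), which did not pass the correction. For Grb10, r was 0.29 (exact p = 0.533, adjusted p = 0.933). Without wild-type replicate 4 and PROSER1 KO replicate 3, which had the highest marker levels, r was 0.92 for Airn and 0.91 for Igf2r.

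**Figure D4:**
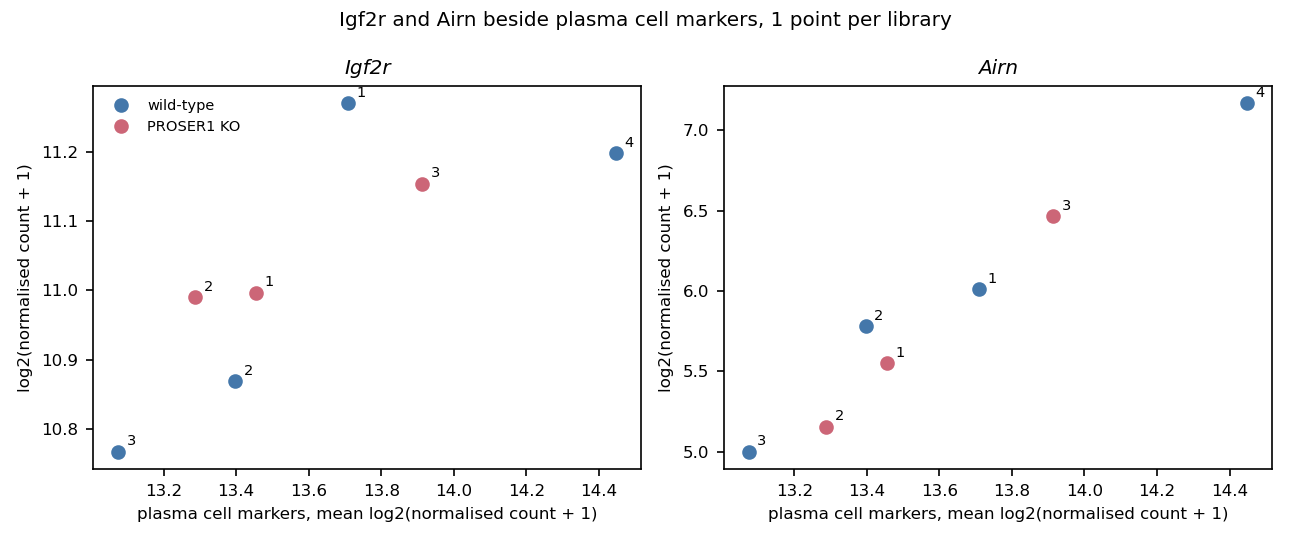
Igf2r (left) and Airn (right) as log2(normalized count + 1) against the mean log2(normalized count + 1) of 7 plasma cell markers, 1 point per library numbered by replicate, wild-type in blue and PROSER1 KO in red. Both rise from wild-type replicate 3 at the lower left, and wild-type replicate 4 has the highest marker level.

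Other imprinted genes gave no call either. They were listed by name, and whether each is imprinted in LSK cells was not measured. Of 54 from 2 further lists (27 maternally and 27 paternally expressed), 53 were in the table. Of these, 10 were at 0 in every library and 32 were tested, with 0 called, beside 0.258% of all genes tested. The median log2 fold change of the 32 was 0.01, and 25 of 32 lay within 0.2 of 0. The 5 most abundant were Gnas (log2 fold change -0.06), H13 (-0.10), Slc22a3 (0.19), Ago2 (0.00) and Tspan32 (0.04), with limma adjusted p of 0.597 or more. In 5 of 32 the groups did not overlap (15.6%, beside 10% of all genes tested), and the same 5 had an unadjusted p under 0.05. Besides Dlk1, these were Snhg14, the host RNA of small nucleolar RNAs in the Ndn-Snrpn domain, Sfmbt2, a polycomb-related gene, the ubiquitin ligase gene Ube3a (0.11) and the tetraspanin gene Cd81 (-0.11).

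Snhg14 normalized counts were 10.6, 8.11, 6.90 and 8.11 in wild-type against 16.7, 21.2 and 20.2 in PROSER1 KO (log2 fold change 1.12, SE 0.37, limma adjusted p = 0.369). Sfmbt2 counts were 155, 169, 99.999 and 182 in wild-type against 257, 263 and 209 in PROSER1 KO (0.71, SE 0.21, limma adjusted p = 0.309). In both, all PROSER1 KO libraries were above all wild-type libraries, at adjusted p-values far from the threshold.

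**Figure D5:**
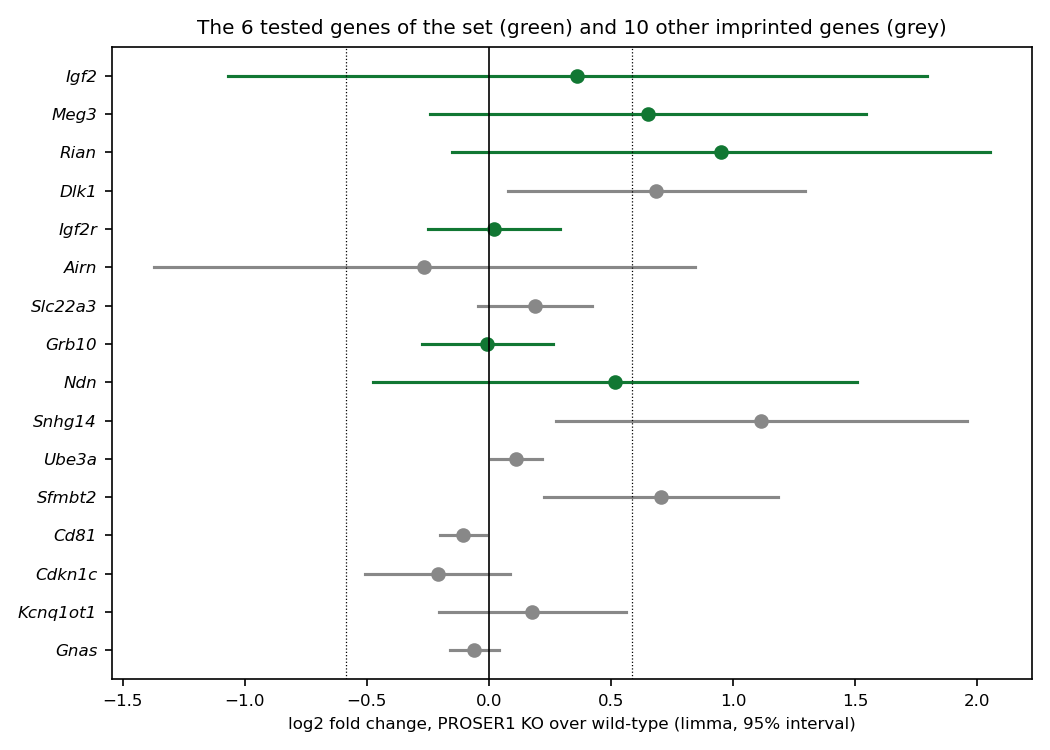
Log2 fold change of PROSER1 KO over wild-type with its 95% interval (limma) for the 6 tested genes of the set (green) and 10 other imprinted genes (grey), with dotted lines at a fold change of 1.5 in each direction. Intervals of Igf2r and Grb10 stay inside the dotted lines, whereas those of Igf2, Meg3, Rian and Ndn reach past the upper line.

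The factors that maintain imprints gave no call. Of 11, 10 were tested and 0 called, beside 0.258% of all genes tested. Log2 fold changes ran from -0.05 to 0.10, with limma adjusted p of 0.671 or more. Zfp57 stood at 519 ± 72.2 in wild-type (SD, n = 4) and 506 ± 81.5 in PROSER1 KO (n = 3), Zfp445 at 3372 ± 186 and 3552 ± 75.7, Trim28 at 22595 ± 1467 and 22201 ± 794, and Dnmt1 at 20002 ± 1234 and 20672 ± 1388. The untested factor was Dppa3, a germ-cell and oocyte protein, at 0 to 1.16.

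Partners in insulin-like growth factor signaling were likewise without a call. Of 11, 8 were tested and 0 called, beside 0.258% of all genes tested. Of the 8, 5 had a log2 fold change above 0, beside 50.6% of all genes tested. Insr, the insulin receptor gene, was at 2654 ± 170 in wild-type (SD, n = 4) and 3064 ± 242 in PROSER1 KO (n = 3), with a log2 fold change of 0.21 (SE 0.07, limma adjusted p = 0.375), and its groups overlapped. Igf1r, the receptor that signals for both insulin-like growth factors, was abundant and differed by -0.05 (limma log2 fold change). The largest log2 fold changes of the list, named after values had been seen, were those of Igfbp5, a binding protein (1.77, SE 0.82, limma adjusted p = 0.528), and the ligand Igf1 (0.81, SE 0.37, limma adjusted p = 0.518). Igfbp5 was at 3.61 to 47.1 normalized counts in wild-type against 21.2 to 98.1 in PROSER1 KO, so that the groups overlapped.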

How the data were processed

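RNA-seq of LSK cells (4 wild-type and 3 PROSER1 KO libraries, grouped by their labels) was used. Trimming by Trimmomatic, alignment by STAR to mm10 and counting of read pairs by featureCounts were done by the authors. The deposited values are these counts divided by DESeq2 size factors, a normalized signal per gene. The study's methods name GENCODE release 25 and the table release 10; positions here come from release 21 (GRCm38). The smallest step in a library gave the worth of a read pair, which turned 100% of values into whole read pairs within 0.01, and 685 genes without a symbol (at most 0.135% of read pairs) stayed in the tests.

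PROSER1 KO was compared with wild-type by limma 3.58.1 under R 4.3.3 (eBayes with a mean-variance trend, log2(normalized count + 1), 16251 genes with a mean of at least 10, Benjamini-Hochberg adjustment over all of them). Calls needed an adjusted p under 0.05 and a fold change above 1.5. edgeR 4.0.16 and DESeq2 1.42.0 on recovered read pairs were alternatives, beside other pseudocounts, filters, variance models, TMM, a replicate block and each library left out. Exact permutation tests (scipy 1.17.1) were two-sided, over 35 splits. On simulated data, limma recovered 74 of 98 changed genes at a log2 change of 1, with 8 false calls among 16164 genes. Recovery was not split by expression level. Residual SDs were 0.95 (Igf2), 0.50 (Meg3), 0.65 (Rian) and 0.71 (Ndn), beside a median of 0.13 over all genes tested. The recovery therefore does not show how often a change of that size would be called in these genes.

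The 10 genes, the gene lists and the markers were chosen with earlier results of these data known. Named genes were the 10, Proser1, listed genes with an unadjusted p under 0.05 or groups without overlap, and the 5 most abundant of the other imprinted genes; genes singled out otherwise were chosen after their values were seen. Sequences come from RefSeq, with no promoter entry used for H19.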

Additional observations from a re-analysis of the deposited data

Results flagged for a closer look

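Mirg in wild-type was the only result in which a library stood far from the rest of its group, of 21 groups of 4 libraries examined. Wild-type replicate 3 held 2.30 normalized counts (2 read pairs) and the other 3 libraries 0, so that the gap to the nearest library was the whole range of the group (gap over range 1). Chance flags about 1 in 20 groups of normally distributed values. With 3 libraries at 0 and 1 above 0, the gap over range is 1 at any level, so the flag adds nothing to the counts. The PROSER1 KO libraries were not examined in this way. A difference of 2 read pairs is below the 3 that a count of 0 allows.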

How the results depend on the processing

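The count of 0 imprinted genes called was the same under all 18 alternatives, as was that of 0 listed genes called under 17. The count of genes called over the whole table (42) was 17 without a mean-variance trend, 80 with robust variance estimates, 165 with DESeq2, and 23 to 42 with a library left out (23 without PROSER1 KO replicate 2); the cause was not tested. Grb10 (-0.01) and Igf2r (0.02) changed sign: with a library left out, Grb10 ranged from -0.11 to 0.060 and Igf2r from -0.065 to 0.10, and Grb10 was 0.027 with the replicate block. Igf2 ranged from -0.14 to 1.12 with a library left out. Meg3 (0.34 to 0.79), Rian (0.61 to 1.33) and Ndn (0.21 to 0.93) were above 0 under all alternatives that gave a value, with lowest adjusted p of 0.605, 0.544 and 0.446. Igf2, Meg3 and Rian had no value at a minimum mean of 50. With a pseudocount of 0.1, the difference was 1.47 for Peg3 and -1.15 for Mirg.

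Same-numbered libraries did not deviate together (correlations 0.02, 0.06 and -0.11), so the numbers were not taken as pairs. With the replicate block 35 genes were called, 26 of them among the 42, and 0 of the imprinted genes. Depth limits H19, Mirg, Peg3, Plagl1 and Igf2, for which most libraries hold fewer than 13 read pairs. Rian (6 to 32 read pairs) and Meg3 (10 to 35) were low as well. The intervals of Igf2, Meg3, Rian and Ndn include changes beyond 1.5-fold, so a missed call there does not show equal expression. Library replicates of 4 and 3 allow no permutation p below 0.0286.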

Other observations

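Further genes were high in PROSER1 KO replicate 1 alone, all chosen after their values were seen. Mpzl2, an adhesion gene of the thymus, had 102 normalized counts there and at most 9.60 elsewhere. Khdc1a had 26.1 and at most 3.84. The gene 5830411N06Rik had 846 and at most 166. Cd4, a T-cell marker, went the other way. It was lower in all 3 PROSER1 KO libraries (113 to 191) than in the 4 wild-type libraries (200 to 287). Such a lack of overlap, in either direction, held for 10% of all genes tested. The log2 fold change of Cd4 was -0.61, with a limma adjusted p of 0.374.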
